A study of Mus musculus with 12 samples.

Results

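The comparison was between MLg cells given recombinant SHHN and MLg cells given vehicle. MLg is an adherent fibroblast line from the lung of newborn mice of the ddY strain, and SHHN is the signalling amino-terminal fragment of Sonic hedgehog. Cells near confluence were moved to medium with 0.5% serum and held there with vehicle or with 1 µg/ml SHHN for 48 h, after which total RNA was sequenced. The 6 libraries used, 3 with vehicle (controls 1 to 3) and 3 with SHHN (1 to 3), were taken by their labelled line out of 12 in the study. The other 6 came from NIH-3T3, an embryonic fibroblast line of NIH/Swiss origin given the same vehicle and SHHN for the same time, and they enter below only where the effect in the 2 lines was tested against each other. Each line stands for a single established culture and not for fibroblasts of the organ at large. No agent or allele other than SHHN separated the groups, and both were in low serum. The labels do not say that replicates were separate cultures, so p-values measure only the spread between these libraries, which may be technical.

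Hedgehog ligands bind the receptor Ptch1, which otherwise holds the membrane protein Smo inactive. With ligand bound, Smo gathers in the primary cilium, the kinase marks that turn Gli proteins into repressors are lost, and Gli factors activate target genes. Gli1 and Ptch1 are among these targets, so that the pathway raises both its own activator and its own inhibitor. In the developing lung the ligand comes from the epithelium and acts on the mesenchyme beneath it, where it supports growth and patterning.

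Levels are FPKM, a read density that allows for the length of the transcript and the size of the library, as deposited. Fold changes are differences of log2(FPKM + 0.5) between SHHN and control, a scale that understates changes of low genes. They were tested with limma, with p-values adjusted over all genes tested by the Benjamini-Hochberg method, and genes are said to have risen or fallen only where the adjusted p was under 0.05. Levels written with ± are means and SDs over the 3 libraries of a group. The files give no counts, so the sequencing depth is unknown. The total over genes was 470218 to 543999 FPKM in the 6 libraries, and 14349 to 14793 genes were above 0. Spearman's correlation across genes was 0.981 to 0.995 within a group and 0.934 to 0.952 between a control and an SHHN library.

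The labelled cell type was checked on its markers. The summed level of 10 fibroblast genes was 10060.0 to 11810.0 FPKM in the control libraries and 8966 to 10300.0 FPKM with SHHN. Of these Pdgfra (−1.28), S100a4 (−0.67) and Pdgfrb (−0.38) fell on the log2 scale, and 0 rose. Thy1, a surface marker of many fibroblasts, was below 0.5 FPKM in every library. Of 5 markers of lung mesenchyme, Tcf21 and Wnt2 were listed at 0 throughout, Foxf1 was at 25.2 ± 3.2 FPKM in control, and Tbx4 and Tbx5 were detected and fell with SHHN. Tbx5 went from 7.69 ± 0.943 to 3.51 ± 0.328 FPKM. Markers of lung epithelium summed to at most 0.399 FPKM in any library, with Epcam, Krt18, Sftpc and Nkx2-1 at 0. Leukocyte markers summed to 1.01 to 1.7 FPKM in control and 0.699 to 1.34 FPKM with SHHN, with Cd3e at 0. Mesothelial markers summed to 57.4 to 81.4 FPKM in control and 55.4 to 64.3 FPKM with SHHN, mostly from Msln. Those of smooth muscle and pericytes summed to 293 to 352 FPKM in control and 280.5 to 304.6 FPKM with SHHN, mostly from Acta2. Endothelial markers moved with SHHN: their sum was 0.101 to 0.154 FPKM in control and 5.78 to 6.51 FPKM with SHHN. That sum was carried by Cdh5 and, at a lower level, Tek, while Emcn and Cldn5 were at 0 and neither Pecam1 nor Kdr passed 0.5 FPKM. As these are bulk libraries, a change in the share of cells of a kind and a change in RNA per cell cannot be told apart.

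SHHN changed genes in both directions and at all levels of expression. The test covered 11784 genes that reached 0.5 FPKM in 3 or more of the 6 libraries. Of these 1789 rose (15.2%) and 1511 fell (12.8%). Among these, 645 rose at least 2-fold (5.47%) and 320 fell at least 2-fold (2.72%). The median of all tested genes was −0.003 on the log2 scale. All 3 SHHN libraries lay above all 3 control libraries for 2580 tested genes, and below them for 2417. With replicate number as a block in the model 2086 genes rose (17.7%) and 1847 fell (15.7%). The calls of both fits shared 3278 genes, with 22 called without the block only and 655 with it only. Of tested genes with a mean under 1 FPKM, 27.0% changed, and of those at 100 FPKM and over, 26.1%. Without SHHN library 3 the genes that fell numbered 932. With quantile normalization 1663 rose and 1872 fell, which turns the balance of the directions (47.04% of calls higher, against 54.21%).

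**Figure D1:**
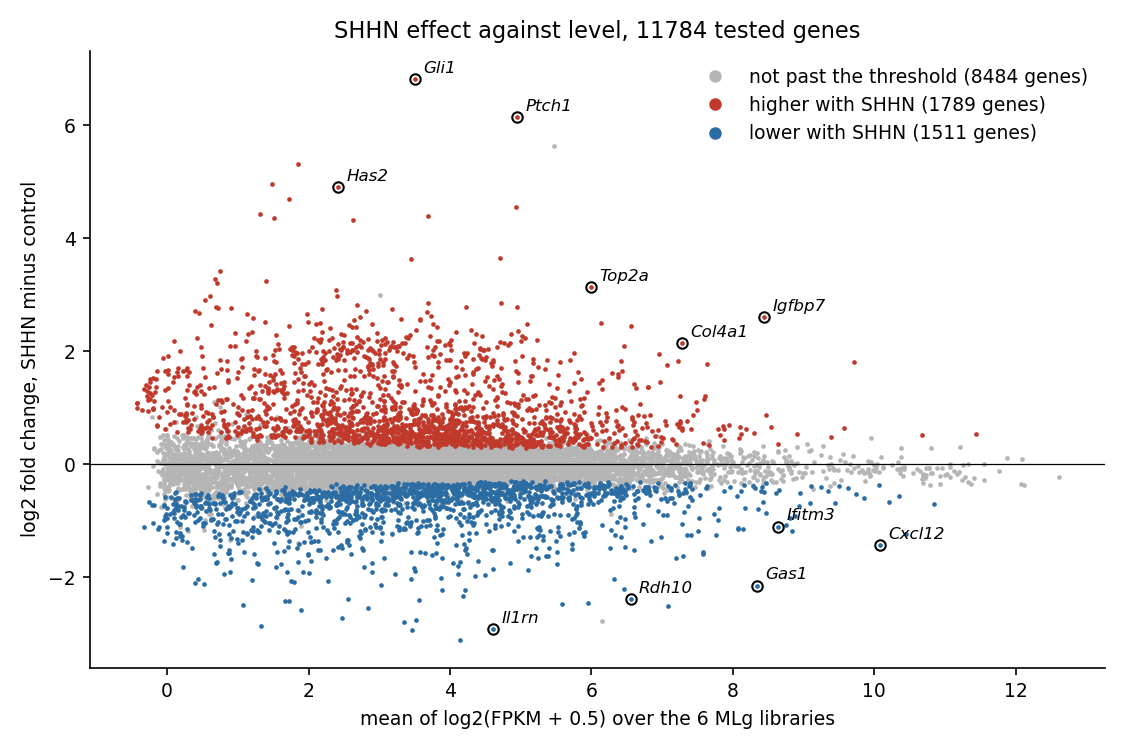
Each point is a tested gene, with its mean log2(FPKM + 0.5) over the 6 MLg libraries across and its log2 fold change (SHHN minus control) up; red marks 1789 genes that rose, blue 1511 that fell and grey the others. Gli1 and Ptch1 stand at the top, above 6 on the log2 scale, and genes that fell reach far into the most abundant ones, such as Cxcl12 and Gas1.

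Among the genes of the pathway itself, Gli1 and the receptor Ptch1 had the highest fold changes of all tested genes, few of the general signalling parts at the cilium passed the test, and the coreceptor Gas1 fell. A list of 74 Hedgehog genes, which includes targets described in other mesenchyme, had 55 tested members, of which 18 rose and 7 fell, with a median of 0.09, beside 15.2% and 12.8% of all tested genes. Gli1, the activator that is itself a target (chr10:127329882-127341974 in mm10), was at 0.906, 0.428 and 0.414 FPKM in the control libraries and 128, 118 and 113 FPKM with SHHN. The groups were far apart in every library, and the log2 fold change was 6.83 (SE 0.17, adjusted p = 3.52e-09). Ptch1 was at 3.68, 2.32 and 3.63 FPKM in the control libraries and 286, 249 and 244 FPKM with SHHN, a change of 6.15 (SE 0.16, adjusted p = 3.52e-09). It was thus well detected without ligand and among the more abundant genes with it. Ligand genes were all but silent: Shh and Dhh were at 0 in control, and Ihh had a mean of 0.116 FPKM. Hhip, the secreted antagonist that many Hedgehog-responsive cells raise, was listed at 0 in control and had a mean of 0.0234 FPKM with SHHN. Ptchd1, a relative of the receptor, fell from 2.93 ± 0.594 to 0.389 ± 0.0481 FPKM.

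The coreceptor Gas1, which binds ligand and hands it to Ptch1, was at 568, 877 and 630.3 FPKM in the control libraries and 109.6, 212 and 155 FPKM with SHHN. Every SHHN library was below every control, and Gas1 fell by 2.15 on the log2 scale (SE 0.23, adjusted p = 4.58e-05). Its partners Cdon and Boc, with means of 27.9 and 4.0 FPKM in control, changed by −0.23 and −0.09 and did not pass the test. Gli2, the main activator before Gli1 is made, was at 18.9, 15.4 and 17.5 FPKM in the control libraries and 44.2, 44.1 and 37.7 FPKM with SHHN. All SHHN libraries were higher, and Gli2 rose by 1.26 (SE 0.12, adjusted p = 1.72e-05). Gli3, the main repressor, was at 8.13, 8.27 and 11.3 FPKM in the control libraries and 7.49, 7.04 and 6.73 FPKM with SHHN. The ranges lay close together without overlap, and the change of −0.35 did not pass the test (adjusted p = 0.0969). It passed after correction for length and GC content (0.0179) and after quantile normalization (0.0313). Sufu, which holds Gli proteins in the cytoplasm, rose from 20.5 ± 1.93 to 32.9 ± 2.33 FPKM. Smo was at 202 ± 11.9 FPKM in control and 181 ± 25.5 FPKM with SHHN, and its change of −0.16 had an adjusted p of 0.372. Of 13 genes that relay the signal at the cilium 2 rose and 0 fell, beside 15.2% and 12.8% of all tested genes. The share that rose was thus near that of all genes. Evc2 and Prkaca were those called, at 0.35 and 0.37. Both calls ended without SHHN library 1, 2 or 3 (adjusted p 0.0518 to 0.147), and that of Evc2 also without control library 1 or 3 and with quantile normalization (0.053). That of Prkaca also ended with 12 libraries in the fit (0.0504). With the replicate block Evc was called as well, at 0.28 (0.0416), as it was after length and GC correction (0.00383). Disp1, which releases ligand from cells that make it, fell from 5.31 ± 0.242 to 3.4 ± 0.32 FPKM.

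Targets described in mesenchyme split by gene. Nkx3-2, a homeobox gene of somites and gut mesenchyme, was at 1.05, 1.37 and 0.835 FPKM in the control libraries and 6.92, 11.7 and 10.5 FPKM with SHHN. It changed by 2.67 (SE 0.20, adjusted p = 4.27e-06). Foxd1, a forkhead factor of stromal progenitors, rose from 29.9 ± 9.18 to 182 ± 84 FPKM, and Rasl11b, a small GTPase of the Ras family, from 9.12 ± 2.98 to 45.7 ± 2.4 FPKM. Sox9, a regulator of cartilage, rose from 7.17 ± 1.98 to 34.3 ± 1.41 FPKM. Bcl2, which protects cells from death, rose from 2.72 ± 0.299 to 9.74 ± 0.181 FPKM, and Tbx2, a T-box repressor, from 5.47 ± 0.961 to 15.5 ± 3.29 FPKM. Igfbp6, which binds insulin-like growth factors, rose from 48.8 ± 9.2 to 154 ± 7.11 FPKM. Igfbp3 of the same family was near 0 in control and at 0.816 ± 0.264 FPKM with SHHN. Against these, Osr1, a zinc-finger factor of lung and kidney mesenchyme, fell from 67.6 ± 10.3 to 31.1 ± 2.79 FPKM. Tbx3 fell from 25.3 ± 1.53 to 11.8 ± 1.35 FPKM, and the Wnt modulator Sfrp1 from 131 ± 12.2 to 72.1 ± 8.0 FPKM. Bmp4, a growth factor that Hedgehog raises in several tissues, fell from 30.2 ± 3.24 to 11.5 ± 0.184 FPKM. Foxf1 and Foxf2, forkhead genes of lung mesenchyme, changed by −0.17 and 0.16 and did not pass the test. Foxc1 rose by 0.91 and Foxc2 by 0.66, and both calls ended without SHHN library 2 (adjusted p 0.05 and 0.0997) or SHHN library 3 (0.0664 and 0.0962). Both also ended with no filter (0.0686 and 0.0806), and that of Foxc2 without control library 2 (0.0524) or 3 (0.0623).

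The 20 highest fold changes, among genes at 5 FPKM or more in the higher group and with no overlap between groups, held secreted and membrane proteins beside the pathway genes. Wfdc1, a secreted protein with a protease inhibitor fold, was at 0, 0 and 0 FPKM in the control libraries and 15.4, 14.2 and 15.7 FPKM with SHHN. It was listed at 0 in every control library, so no fold is given. Has2, which makes the matrix sugar hyaluronan, was at 0.411, 0.478 and 0.539 FPKM in the control libraries and 30.8, 26.7 and 29.3 FPKM with SHHN. Sox18, a transcription factor of vessel endothelium, was at 0.0352, 0.0419 and 0.0301 FPKM in the control libraries and 10.3, 11.7 and 11.4 FPKM with SHHN, and Cdh5, the cadherin of endothelial junctions, at 0, 0 and 0.0369 FPKM in the control libraries and 5.41, 4.63 and 5.03 FPKM with SHHN. Both were near 0 in every control and raised in every SHHN library. Of the other endothelial markers Tek was also higher with SHHN, and the rest were at or near 0 as given above. The part of other cells in these rises was not tested. Ppp1r13b, which binds p53, rose from 2.61 ± 0.387 to 38.2 ± 2.8 FPKM. Enc1, an actin-binding protein, rose from 4.31 ± 0.252 to 34.5 ± 0.991 FPKM. Cdh17, a cadherin of liver and gut, rose from 0.353 ± 0.0455 to 7.58 ± 0.339 FPKM, and Scara5, a receptor for ferritin, from 1.29 ± 0.072 to 14.7 ± 1.11 FPKM. Atad2, a bromodomain protein of dividing cells, rose from 9.5 ± 2.63 to 70.6 ± 8.34 FPKM. Rps27, a ribosomal protein gene, was among them when taken alone, with a change of 4.55. It shares its sequence with Rps27rt, and the sum of both was 4917 ± 779 FPKM in control and 3993 ± 557 FPKM with SHHN, a change of −0.30 (limma adjusted p = 0.256). The rise of Rps27 alone is therefore not counted as a change.

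Among genes at 50 FPKM or more with SHHN, Igfbp7, a secreted binding protein of insulin-like growth factors, was at 146, 174 and 109 FPKM in the control libraries and 688, 1008 and 911 FPKM with SHHN. It changed by 2.6 (SE 0.19, adjusted p = 3.54e-06). Igfbp4, which binds the same growth factors, rose from 453 ± 68.8 to 1584 ± 95.7 FPKM. Mr1, an antigen-presenting molecule that shows vitamin B metabolites to T cells, rose from 11.3 ± 0.787 to 80.8 ± 1.95 FPKM. Pkdcc, a secreted kinase needed for bone and lung growth, rose from 40.5 ± 8.63 to 226 ± 61.1 FPKM. Top2a, the topoisomerase that untangles DNA in dividing cells, was at 15.7, 20.5 and 28.6 FPKM in the control libraries and 199, 165 and 205 FPKM with SHHN, and Tk1, thymidine kinase, at 8.6, 18.6 and 16.4 FPKM in the control libraries and 81.1, 74.5 and 84.9 FPKM with SHHN. For genes of the 20 highest, Top2a among them, lack of overlap was a condition of the rule.

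**Figure D2:**
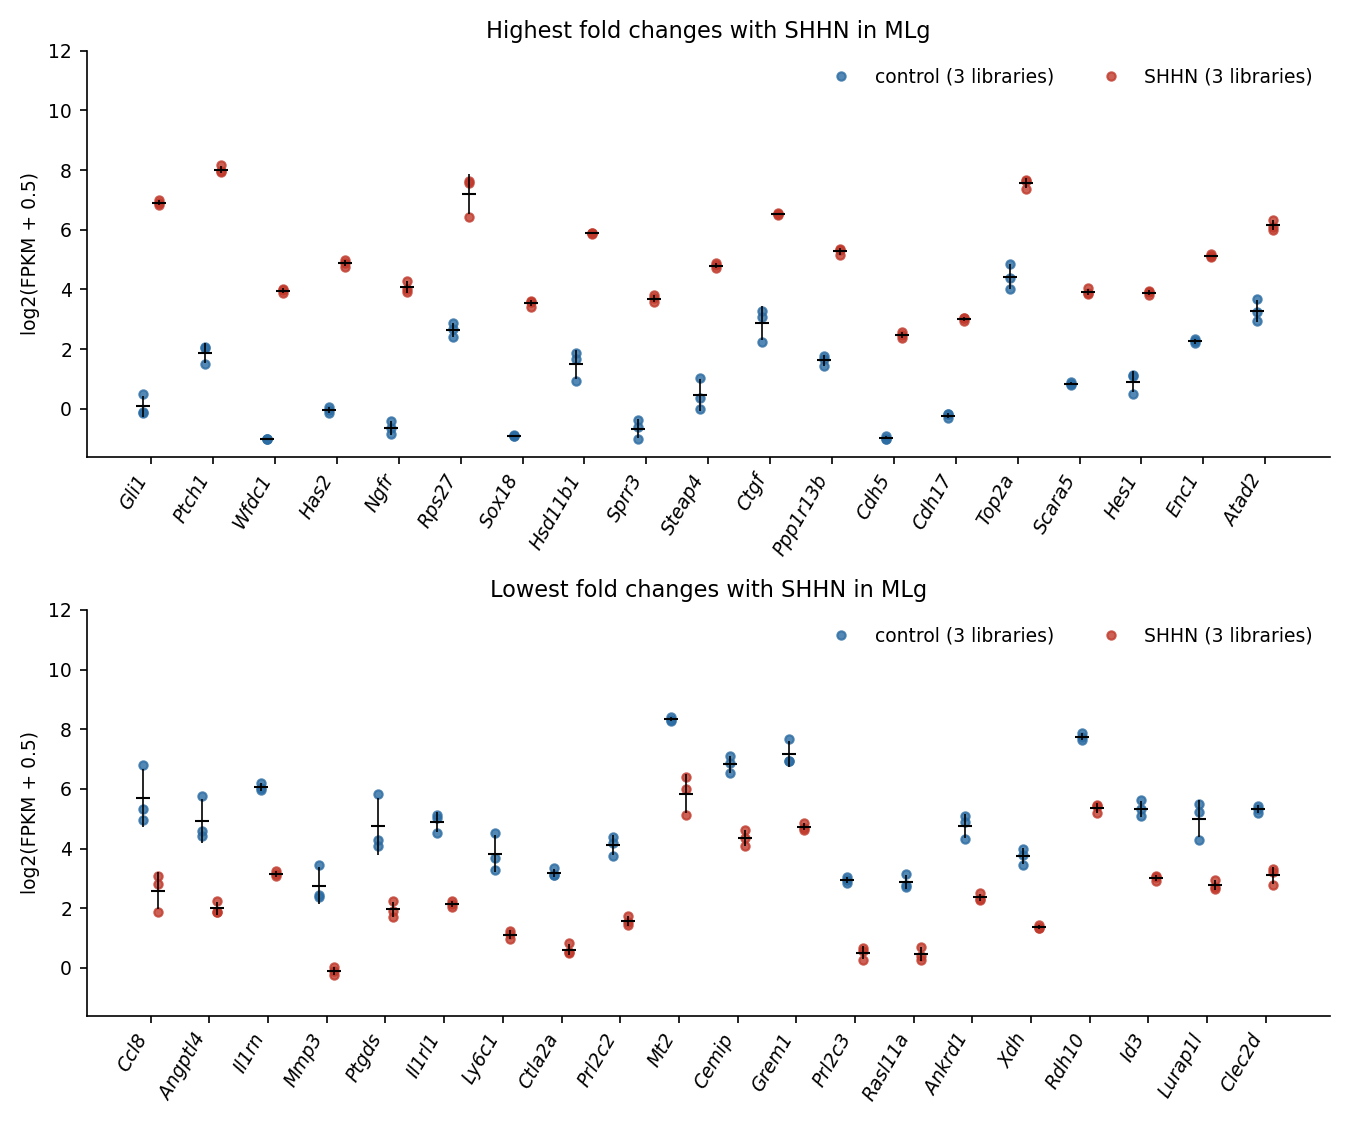
Points are the log2(FPKM + 0.5) values of single MLg libraries, control in blue and SHHN in red, for genes of the 20 highest (top) and the 20 lowest (bottom) fold changes by the rule; bars give the mean and SD of each group of 3. By the rule no gene shown has overlapping groups. Rps27, whose near copy Rps27rt fills the other share of its reads, has 1 SHHN library well below the others.

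The 20 lowest fold changes were taken by the same rule. Il1rn, which blocks the interleukin 1 receptor, was at 62.5, 64.2 and 73.5 FPKM in the control libraries and 8.29, 9.01 and 7.89 FPKM with SHHN. Il1rn fell by 2.92 (SE 0.11, adjusted p = 6.35e-08). Ccl8, a chemokine for monocytes, was at 110.1, 30.8 and 39.3 FPKM in the control libraries and 6.53, 7.89 and 3.18 FPKM with SHHN. Its control libraries spread widely, and lack of overlap between groups was a condition of the rule that named it. Angptl4, which inhibits lipoprotein lipase, fell from 32.8 ± 18.4 to 3.53 ± 0.625 FPKM. Rdh10, which starts the making of retinoic acid (chr1:16105774-16133734), was at 215, 197 and 232 FPKM in the control libraries and 35.8, 42.8 and 43.8 FPKM with SHHN. It was among the more abundant genes in all controls and fell by 2.38 (SE 0.12, adjusted p = 4.16e-07). Grem1, a secreted BMP antagonist, fell from 149 ± 48 to 26 ± 2.17 FPKM, and Id3, a BMP target that blocks bHLH factors, from 40.5 ± 7.74 to 7.6 ± 0.48 FPKM. Cemip, which breaks down hyaluronan, fell from 114 ± 22.2 to 20.1 ± 3.82 FPKM, so that Has2 and Cemip moved in opposite directions. Xdh, a purine-degrading enzyme, fell from 13.1 ± 2.49 to 2.08 ± 0.134 FPKM, and Clec2d, a lectin seen by natural killer cells, from 39.6 ± 3.41 to 8.23 ± 1.66 FPKM. Ankrd1, a target of the YAP coactivator, fell from 27.4 ± 7.14 to 4.67 ± 0.444 FPKM. The proliferin copies Prl2c2 and Prl2c3, hormone-like secreted proteins with near-identical sequence, are given as a sum, which fell from 24.3 ± 4.38 to 3.42 ± 0.369 FPKM, a change of −2.65 (adjusted p = 9.65e-07). Ly6c1, a surface antigen with a near-identical neighbour, changed by −2.71 and its single value is uncertain. Below this group stood abundant genes such as Htra1, a secreted serine protease, which fell from 189.9 ± 25.3 to 40.7 ± 6.23 FPKM, and Dusp1, which switches off MAP kinases, from 65.7 ± 10.1 to 17.7 ± 2.54 FPKM.

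Genes of the dividing cell rose nearly as a body. Of 72 tested mitosis genes 72 rose and 0 fell, with a median of 2.0; of 72 genes of S phase entry and DNA replication 62 rose and 0 fell (median 1.49), beside 15.2% and 12.8% of all tested genes and their median of −0.003. All 18 tested genes that license replication origins and all 21 of the fork and its polymerases rose, under every alternative run. The licensing factor Mcm5 was at 10.7, 14 and 15.4 FPKM in the control libraries and 77.3, 63.9 and 68.8 FPKM with SHHN, and Mcm3 rose from 17.1 ± 1.58 to 80.1 ± 5.34 FPKM. Pcna, the sliding clamp of the polymerases, rose from 79 ± 10.3 to 282 ± 23.1 FPKM, and Lig1, which seals the lagging strand, from 13.3 ± 2.31 to 60.7 ± 6.97 FPKM. Of 10 cyclins and kinases of S phase entry 6 rose. Cyclin E was prominent: Ccne2 rose from 2.14 ± 1.32 to 16.8 ± 2.79 FPKM and Ccne1 from 2.15 ± 0.366 to 11.4 ± 1.01 FPKM. The D cyclins differed among themselves, as Ccnd3 rose from 65.3 ± 8.16 to 106 ± 5.34 FPKM while Ccnd1 (0.26, adjusted p = 0.0798) and Ccnd2 (−0.21, adjusted p = 0.192) did not pass the test. Length and GC correction brought both past it (0.0183 and 0.0171). Nucleotide synthesis genes rose in 9 of 10 cases, among them Rrm2, a subunit of ribonucleotide reductase, from 12.1 ± 3.24 to 54.9 ± 4.63 FPKM. In the E2F and retinoblastoma family 8 of 13 rose, and E2f7 and E2f8, E2F members that repress, went from 1.56 ± 0.557 to 8.03 ± 0.53 FPKM and from 2.22 ± 0.146 to 10.6 ± 1.47 FPKM.

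Each part of the mitotic machinery took part: 17 of 17 cyclins and kinases, 21 of 21 spindle and cytokinesis genes, 21 of 21 kinetochore genes and 13 of 13 condensin, cohesin and securin genes rose. Aurkb, the kinase of the chromosomal passenger complex, was at 5.65, 7.98 and 7.63 FPKM in the control libraries and 41.2, 34.3 and 38.5 FPKM with SHHN. Prc1, which bundles microtubules at the midzone, rose from 9.19 ± 1.45 to 42.4 ± 4.13 FPKM, and Birc5, a passenger partner of Aurkb, from 12.4 ± 0.575 to 56.9 ± 7.75 FPKM. Ncaph, a condensin subunit, rose from 4.54 ± 0.53 to 25.6 ± 2.23 FPKM. Inhibitors of cyclin-dependent kinases moved both ways. Cdkn1a, the p21 inhibitor, rose from 17.3 ± 0.762 to 54.4 ± 6.74 FPKM and Cdkn2d from 12.9 ± 0.449 to 31 ± 3.93 FPKM, while Cdkn1b, the p27 inhibitor, fell from 56.7 ± 2.25 to 39.7 ± 2.86 FPKM and Cdkn1c from 10.5 ± 2.16 to 5.7 ± 0.896 FPKM. Of 15 genes high in resting fibroblasts 1 rose and 8 fell (median −0.38), beside 15.2% and 12.8% of all tested genes. Under the replicate block 2 of them were higher. Txnip, which binds thioredoxin, fell from 71.9 ± 3.62 to 27.7 ± 1.65 FPKM, and Cited2, a transcriptional coregulator, from 57.6 ± 4.12 to 25.6 ± 1.96 FPKM. Gas7 was the member that rose, from 18.5 ± 1.52 to 68.3 ± 6.09 FPKM.

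DNA repair and chromatin genes rose with them. In homologous recombination and the Fanconi pathway 18 of 19 tested genes rose, and in checkpoint and mismatch repair 11 of 13, with 0 lower in either. Brca1 was at 1.57, 2.2 and 2.5 FPKM in the control libraries and 12.7, 11.5 and 12.1 FPKM with SHHN. Fanca, of the Fanconi core complex, rose from 1.54 ± 0.239 to 9.88 ± 1.51 FPKM, and Clspn, which relays replication stress to the checkpoint kinase Chek1, from 1.62 ± 0.381 to 9.24 ± 0.56 FPKM. Among 28 chromatin and DNA methylation genes 17 rose and 2 fell, beside 15.2% and 12.8% of all tested genes. Uhrf1, which brings the methyltransferase Dnmt1 to newly made DNA, was at 13, 15.7 and 15.1 FPKM in the control libraries and 72.8, 62.6 and 68 FPKM with SHHN, and Dnmt1 itself rose from 20.8 ± 0.713 to 49.9 ± 5.45 FPKM. Chaf1a and Chaf1b, subunits of the assembly factor that loads histones behind the fork, rose by 1.97 and 2.01. The Polycomb gene Cbx8 fell, from 9.81 ± 2.35 to 5.68 ± 0.75 FPKM. Histone genes were less uniform, with 5 of 13 higher and 1 lower. The higher ones numbered 3 without control 1, SHHN 1 or SHHN 2 and 1 without SHHN 3, and 4 were lower with the replicate block. H2afz, a variant histone of promoters, rose from 121 ± 6.03 to 261 ± 15.9 FPKM. Messages of replication-linked histones lack a poly(A) tail, and how the libraries selected RNA is not given in the sources used here.

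Promoters of these genes were read for the letters of known cell cycle motifs. RefSeq windows (GRCm38.p6) from 250 bases before to 50 after a start were at hand for 9395 of the 11784 tested genes. The E2F motif TTNGCGC, searched on both strands, was in 40.5% of 37 windows of licensing and fork genes, in 11.2% of windows of all tested genes and in 6.36% of all 32851 windows. The CHR motif TTTGAA, an element of genes of G2 and mitosis, was in 58.5% of 65 windows of mitosis genes, against 11.9% and 17.9%. The CCAAT box, often found with it, was in 69.2% of the mitosis windows, against 38.4% and 37.4%. The 200 bases before the start are shown, 5′ to 3′ on the gene's own strand and with motif matches in capitals, for a pair of licensing genes, Mcm5 (chr8:75109309-75109508, plus strand) and Mcm6 (chr1:128359706-128359905, minus strand), whose E2F matches overlap on the 2 strands:
Mcm5: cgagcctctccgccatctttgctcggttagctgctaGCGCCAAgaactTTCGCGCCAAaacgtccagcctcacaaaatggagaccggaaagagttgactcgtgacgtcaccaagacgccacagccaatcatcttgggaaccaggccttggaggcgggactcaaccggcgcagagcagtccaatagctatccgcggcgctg
Mcm6: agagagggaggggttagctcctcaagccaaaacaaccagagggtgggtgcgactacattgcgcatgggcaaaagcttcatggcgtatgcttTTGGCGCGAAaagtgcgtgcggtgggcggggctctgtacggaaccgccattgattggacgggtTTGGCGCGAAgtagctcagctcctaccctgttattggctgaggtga
Mcm5 has 3 matches, 149 to 164 bases before the start, and Mcm6 has 4, 43 to 109 bases before it. Mcm5 rose by 2.36 and Mcm6 by 1.98. A pair of spindle genes, Prc1 (chr7:80294276-80294475, plus strand) and Kif22, a chromosome-binding kinesin (chr7:127042421-127042620, minus strand), shows a single CHR match close to the start:
Prc1: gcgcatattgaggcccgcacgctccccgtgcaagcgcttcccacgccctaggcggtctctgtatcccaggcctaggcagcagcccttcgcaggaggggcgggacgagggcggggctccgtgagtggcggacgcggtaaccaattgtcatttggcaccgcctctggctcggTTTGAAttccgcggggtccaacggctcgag
Kif22: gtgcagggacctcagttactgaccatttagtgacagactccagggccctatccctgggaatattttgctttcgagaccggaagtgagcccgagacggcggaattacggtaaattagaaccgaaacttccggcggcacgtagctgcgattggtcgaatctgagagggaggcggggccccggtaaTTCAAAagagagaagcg
The capitals lie 30 bases before the start in Prc1 and 17 in Kif22, and these genes rose by 2.15 and 2.08. A match is a description of the letters, and binding was not measured. The Gli core motif CCACCCA was in 11.4% of windows of genes that rose, in 9.74% of those of genes that fell and in 9.24% of windows of all tested genes. Of 14 windows of Hedgehog genes that rose, 1 held it (7.14%), and the window of Ptch1 did not. The longer form GACCACCCA was in 11 of 1757 windows of genes that rose (0.626%) and 1 of 1591 of genes that fell. It was in 0.234% of windows of all tested genes and 0.253% of all windows. Of the 14 windows of Hedgehog genes that rose, 0 held the longer form.

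**Figure D3:**
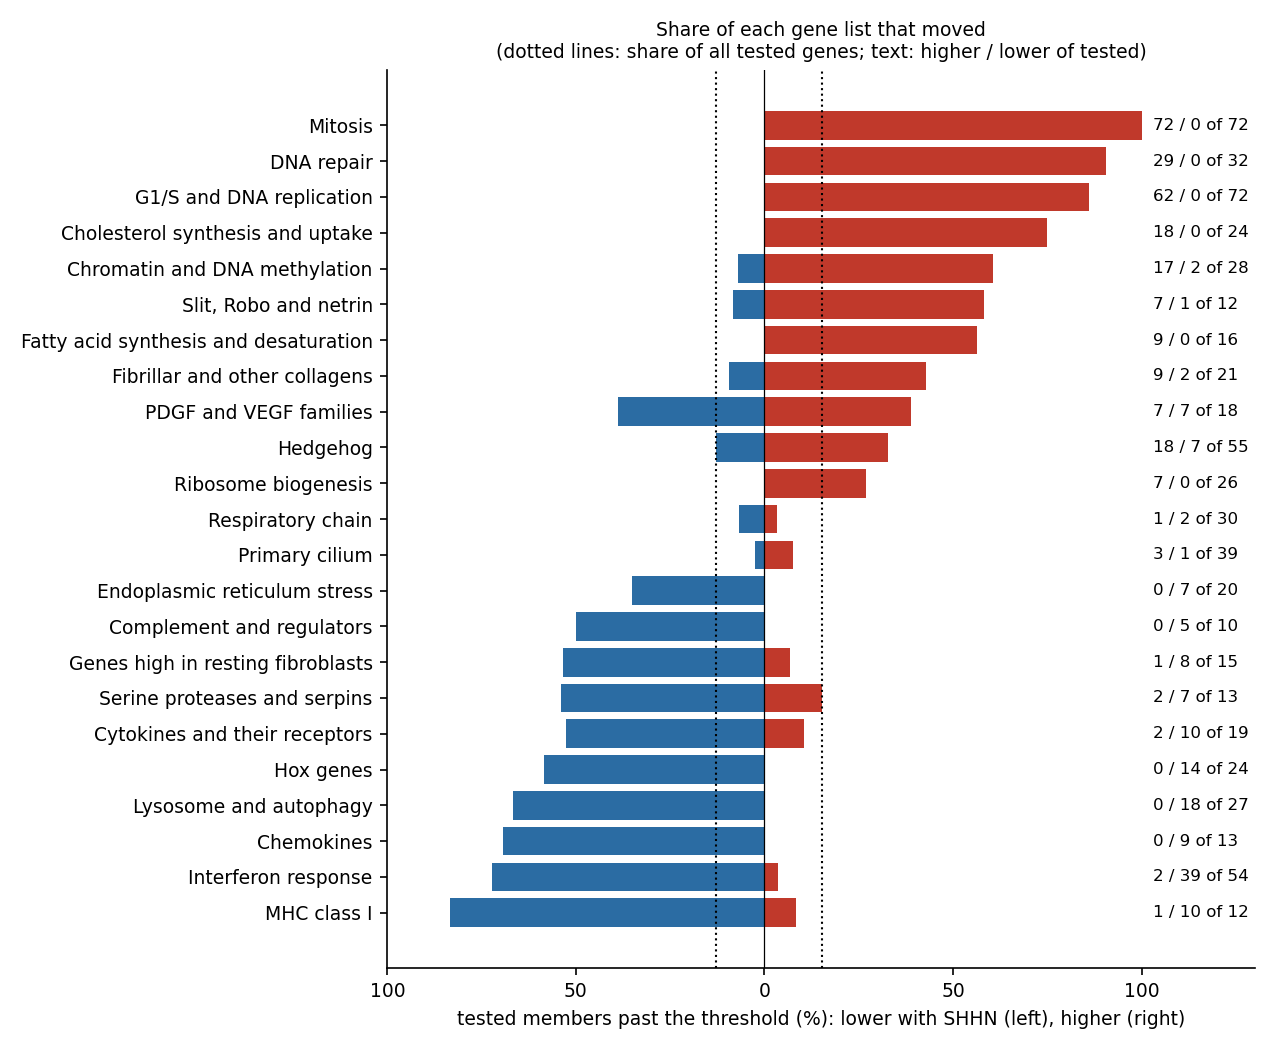
For each gene list the bar to the right is the percentage of tested members that rose with SHHN and the bar to the left the percentage that fell; dotted lines mark 15.2% and 12.8%, the shares of all tested genes, and the text gives higher and lower counts of tested members. Lists of the dividing cell lie to the right and lists of interferon, antigen presentation, chemokines and lysosome to the left, while the respiratory chain and primary cilium stay within the dotted lines.

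Interferon-induced genes and antigen presentation fell, by smaller steps than the rise of cell cycle genes. Of 54 tested interferon response genes 2 rose and 39 fell, with a median of −0.60, beside 15.2% and 12.8% of all tested genes. Among effectors 15 of 22 fell, a count of 9 without control library 1. Ifitm3, a membrane protein that blocks virus entry and the most abundant of the named effectors, was at 596, 645 and 514 FPKM in the control libraries and 235, 313 and 271 FPKM with SHHN. All SHHN libraries were lower. Ifit1 was at 2.79, 2.8 and 2.98 FPKM in the control libraries and 0.404, 0.628 and 0.634 FPKM with SHHN, a low level in either group. Cmpk2, a mitochondrial nucleotide kinase, went against the group and rose from 0.764 ± 0.0906 to 1.93 ± 0.0753 FPKM. Of 20 sensors and transcription factors 14 fell, among them Stat2, which carries the interferon signal to the nucleus, from 17.9 ± 2.44 to 8.81 ± 0.443 FPKM. Ifnar2, a chain of the receptor itself, fell from 24.9 ± 3.0 to 14.6 ± 2.11 FPKM. Guanylate-binding and related genes fell in 10 of 12 cases, and in 6 without SHHN library 3. Irgm1, a GTPase against microbes inside cells, fell from 25.7 ± 0.346 to 13.7 ± 0.278 FPKM. For MHC class I, 10 of 12 genes fell and 1 rose, with 6 lower without SHHN library 3 and likewise with 12 libraries in the fit. Tapbp, which loads peptides, was at 199.9, 191 and 157 FPKM in the control libraries and 117, 116 and 108 FPKM with SHHN, and H2-T23 fell from 18 ± 2.87 to 8.15 ± 0.439 FPKM. Several genes of these families have near-identical copies, so their single values are uncertain where reads were split.

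The interferon response motif GAAANNGAA, searched on both strands, was in 16 of 32 windows of interferon genes that fell, in 6.88% of windows of all tested genes and in 8.56% of all windows. The 200 bases before the start of Ifit1 (chr19:34640689-34640888, plus strand) and of Ifit3 (chr19:34583329-34583528, plus strand), neighbours in the same cluster, are shown with matches in capitals:
Ifit1: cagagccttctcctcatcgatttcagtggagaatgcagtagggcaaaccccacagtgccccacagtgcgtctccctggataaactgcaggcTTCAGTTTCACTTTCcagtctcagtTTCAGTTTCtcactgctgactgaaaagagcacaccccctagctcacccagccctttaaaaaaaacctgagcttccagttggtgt
Ifit3: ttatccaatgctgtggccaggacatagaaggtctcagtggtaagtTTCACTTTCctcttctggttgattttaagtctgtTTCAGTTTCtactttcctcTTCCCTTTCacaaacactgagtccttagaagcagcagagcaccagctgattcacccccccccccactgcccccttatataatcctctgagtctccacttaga
Each has 3 matches, 84 to 109 bases before the start in Ifit1 and 102 to 155 in Ifit3. Ifit1 fell by 1.68 and Ifit3 by 1.53 on the log2 scale.

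Chemokines fell in 9 of 13 tested cases and rose in 0, with a median of −1.36. Of all tested genes 12.8% fell and 15.2% rose, and the counts below stand beside these shares. Cxcl12, which holds leukocytes and stem cells near stroma, was the most abundant, at 1536, 1764 and 2058 FPKM in the control libraries and 649, 694 and 642 FPKM with SHHN. Its groups did not overlap, and it fell by 1.42 (SE 0.14, adjusted p = 2.4e-05). Ccl2, which draws monocytes, fell from 185 ± 24.2 to 71.3 ± 4.05 FPKM, and Cx3cl1, a membrane-bound chemokine, from 21.8 ± 3.77 to 4.98 ± 0.961 FPKM. Cytokines and their receptors fell in 10 of 19 cases and rose in 2. Among those that fell were Osmr, the oncostatin M receptor, from 30.0 ± 5.88 to 8.53 ± 1.29 FPKM, Il6ra from 12.1 ± 2.53 to 4.93 ± 0.933 FPKM and Lifr from 18.6 ± 2.22 to 8.55 ± 0.448 FPKM. In the NF-kB and Toll pathway 5 of 16 fell and 0 rose. These were mostly inhibitors and feedback members, such as Nfkbia, which keeps NF-kB in the cytoplasm and fell from 29.1 ± 4.24 to 12.1 ± 0.71 FPKM, and Bcl3, which fell from 21 ± 3.87 to 5.45 ± 0.444 FPKM. Complement genes fell in 5 of 10 cases, and in 8 without control library 1. C3, the central component, was at 116, 54.1 and 60.9 FPKM in the control libraries and 25.6, 23.3 and 21.2 FPKM with SHHN. Prostaglandin genes moved both ways (3 higher and 2 lower of 11, with 1 higher without control 2 or without any one SHHN library). Ptgs1, a cyclooxygenase, fell from 54.2 ± 1.78 to 22.1 ± 2.07 FPKM, while Ptger4, a receptor for prostaglandin E2, rose from 1.17 ± 0.252 to 4.33 ± 0.196 FPKM.

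**Figure D4:**
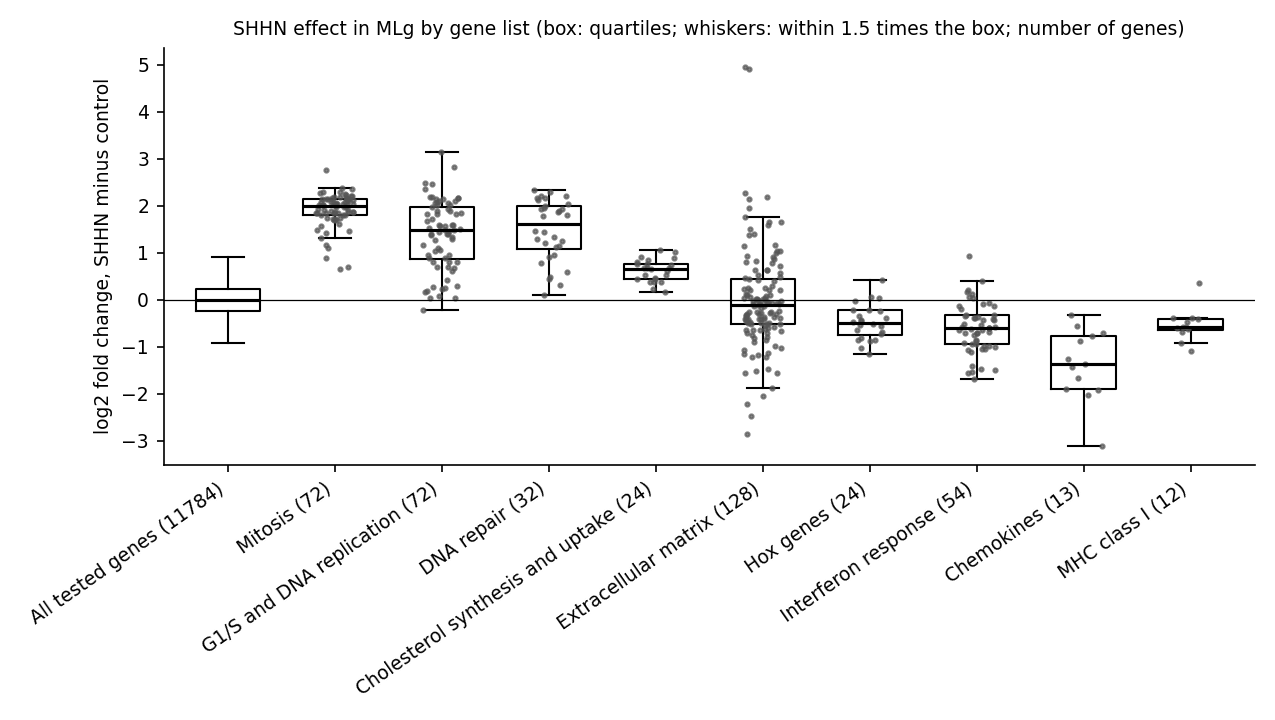
Boxes give the quartiles and median of the log2 fold change (SHHN minus control) of the tested genes of each list, with dots for single genes and the number of genes in the axis labels. Mitosis genes centre on 2.0 and chemokines on −1.36, while matrix genes spread to both sides of 0.

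In metabolism, lipid synthesis rose and the lysosome fell. Cholesterol synthesis and uptake genes rose in 18 of 24 cases and fell in 0 (median 0.66), beside 15.2% and 12.8% of all tested genes. Lss, which closes the sterol rings, was at 15.6, 23.8 and 25.2 FPKM in the control libraries and 48.1, 40.7 and 45.2 FPKM with SHHN. The sterol motif TCACNCCAC was in 1 of 14 windows of the cholesterol genes that rose (7.14%), too few to compare with other windows. It was in 1.16% of windows of all tested genes and 1.24% of all windows. CCAAT was in 11 of the 14 (78.6%), against 38.4% and 37.4%. Fatty acid synthesis genes rose in 9 of 16 cases and fell in 0, or in 2 with the replicate block. Fasn, fatty acid synthase, rose from 79.7 ± 2.9 to 144 ± 11.3 FPKM, while Cpt1a, which brings fatty acids into mitochondria for burning, fell from 58.6 ± 8.57 to 23.6 ± 1.73 FPKM. Retinoid genes had 2 higher and 5 lower of 10: the synthetic enzyme Aldh1a1 fell from 6.98 ± 1.08 to 1.82 ± 0.571 FPKM beside Rdh10, and the degrading enzyme Cyp26b1 rose from 0.207 ± 0.0617 to 1.68 ± 0.165 FPKM. Hsd11b1, which makes active glucocorticoid inside cells, was at 3.12, 1.43 and 2.66 FPKM in the control libraries and 58.9, 59.5 and 57.1 FPKM with SHHN. Its rise was 4.39, and the glucocorticoid target Fkbp5 rose from 5.55 ± 0.69 to 11.4 ± 0.0422 FPKM whereas the target Dusp1 fell. Of 10 tested glucocorticoid and metallothionein genes, Hsd11b1 among them, 2 rose and 5 fell, with a median of −0.34. Lysosome and autophagy genes fell in 18 of 27 cases, which came to 11 without SHHN library 2 and 10 without SHHN library 3. Ctsl, a lysosomal protease, was at 232, 258 and 279 FPKM in the control libraries and 121, 134 and 143 FPKM with SHHN, and Gabarapl1, an autophagosome protein, fell from 163 ± 3.9 to 92.3 ± 8.51 FPKM. Genes of ribosome biogenesis rose in 7 of 26 cases, in 11 with the replicate block and in 4 without SHHN library 3. Respiratory chain genes (1 higher and 2 lower of 30) and primary cilium genes (3 and 1 of 39, with 3 lower under the replicate block) had fewer calls than the background of 15.2% and 12.8%. Cep290, of the transition zone, rose from 2.21 ± 0.75 to 4.12 ± 0.444 FPKM, and Hmox1, a heme-degrading enzyme of the oxidative defence, fell from 132 ± 32.3 to 60.3 ± 5.46 FPKM.

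Other signalling families had members on both sides. Among 30 tested Wnt genes 8 rose and 9 fell, where 15.2% of all tested genes rose and 12.8% fell. The counts below stand beside the same shares. Lgr4, a receptor for R-spondins that strengthens Wnt signals, was at 5.44, 7.12 and 7.51 FPKM in the control libraries and 43, 50.3 and 53.1 FPKM with SHHN. All SHHN libraries were above all controls, and it changed by 2.78 (SE 0.14, adjusted p = 4.6e-07). The receptor Fzd4 rose from 4.36 ± 1.66 to 19.4 ± 0.358 FPKM while Fzd7 fell from 39.9 ± 4.51 to 24.4 ± 4.02 FPKM, and the antagonist Dkk2 rose from 3.53 ± 0.24 to 11.4 ± 0.485 FPKM while Dkk3 fell from 69.4 ± 3.82 to 46.7 ± 3.29 FPKM. BMP and TGF-beta genes had 11 higher and 15 lower of 47. Inhba, a chain of activin, rose from 13.6 ± 2.32 to 32.3 ± 3.72 FPKM. Id genes and other targets had 3 higher and 5 lower of 13, and antagonists 4 and 5 of 11. Id2 fell from 9.91 ± 1.34 to 3.71 ± 0.375 FPKM and Id1 rose from 5.31 ± 1.73 to 11.8 ± 0.869 FPKM. Smad6, which inhibits the pathway inside cells, fell from 13.6 ± 3.41 to 5.59 ± 1.98 FPKM. Tgfbi, a matrix protein induced by TGF-beta, fell from 7.35 ± 0.841 to 1.61 ± 0.466 FPKM. In the Notch list 2 of 9 rose and 1 fell, with 2 lower under the replicate block. Hes1, a repressor that Notch and Hedgehog can both raise, was at 1.67, 1.66 and 0.923 FPKM in the control libraries and 13.5, 14.7 and 14.9 FPKM with SHHN. The ligand Jag1 rose from 5.22 ± 0.398 to 31.6 ± 0.52 FPKM and the ligand Dll1 fell from 3.58 ± 0.635 to 0.858 ± 0.199 FPKM. CCN family and YAP target genes had 1 member higher and 7 lower of 19: Ctgf, a matrix signal protein, was at 4.21, 9.3 and 8.0 FPKM in the control libraries and 91.9, 94.8 and 89 FPKM with SHHN, whereas Cyr61 of the same family fell from 46.4 ± 8.76 to 12.5 ± 2.09 FPKM and Amotl2 from 149 ± 29.7 to 53.4 ± 6.15 FPKM.

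Of 57 growth factor and receptor genes 15 rose and 20 fell, beside 15.2% and 12.8% of all tested genes. In the PDGF and VEGF families 7 rose and 7 fell of 18. The ligand Pdgfc was at 4.2, 4.63 and 3.94 FPKM in the control libraries and 19.5, 25.8 and 21.5 FPKM with SHHN and Pdgfa rose from 11.1 ± 2.68 to 41.3 ± 2.78 FPKM, while Pdgfra, their receptor, was at 204, 181 and 205 FPKM in the control libraries and 86.5, 80.0 and 75.7 FPKM with SHHN. Pgf, placental growth factor, was near 0 in control and at 3.79 ± 0.355 FPKM with SHHN, and the VEGF relative Figf fell from 152 ± 14.2 to 72.8 ± 2.65 FPKM. Ngfr, the low-affinity neurotrophin receptor, was at 0.258, 0.0504 and 0.143 FPKM in the control libraries and 19.1, 14.5 and 15.7 FPKM with SHHN. Ptn, pleiotrophin, fell from 692 ± 81.8 to 304 ± 15.1 FPKM. In the FGF family the ligand Fgf7 rose from 5.68 ± 1.27 to 15.7 ± 2.28 FPKM and Fgf10, a signal from lung mesenchyme to epithelium, from 7.02 ± 0.795 to 11.5 ± 0.531 FPKM. Fgfr1 fell from 64.2 ± 4.51 to 34.1 ± 2.84 FPKM, Fgfr2 rose from 13.6 ± 0.409 to 26.8 ± 1.37 FPKM, and the feedback inhibitor Spry2 fell from 83 ± 19.6 to 35.4 ± 3.45 FPKM. Among guidance molecules the Slit, Robo and netrin group had 7 higher and 1 lower of 12. Ntn1, a netrin that guides axons and vessels, was at 4.89, 6.21 and 5.63 FPKM in the control libraries and 29.1, 34.3 and 33.2 FPKM with SHHN, and Slit3 rose from 2.02 ± 0.494 to 11.8 ± 1.26 FPKM. Ntn4 fell from 3.6 ± 0.879 to 1.32 ± 0.184 FPKM. Sema6a, a membrane semaphorin, rose from 2.4 ± 0.176 to 11.4 ± 1.41 FPKM, and Efnb1, a ligand of Eph receptors, from 22.3 ± 4.17 to 72.2 ± 4.77 FPKM.

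Matrix genes moved both ways: 32 of 128 rose and 43 fell, with a median of −0.10. Of all tested genes 15.2% rose and 12.8% fell, and the counts below stand beside these shares. Collagen chain genes had 9 higher and 2 lower of 21. Col4a1, a basement membrane collagen chain, was at 89.5, 69 and 64.2 FPKM in the control libraries and 355, 329.5 and 297 FPKM with SHHN, and its partner Col4a2 rose from 108 ± 15.4 to 367 ± 21.1 FPKM. Col16a1, of the collagens that join fibrils, rose from 40.1 ± 5.97 to 82.5 ± 5.12 FPKM. The fibrillar chains Col1a1, Col1a2 and Col3a1, among the markers above, did not pass the test. Enzymes that cross-link collagen moved apart: Lox fell from 165 ± 13.6 to 57 ± 5.23 FPKM and Loxl1 from 629 ± 112 to 299 ± 58.6 FPKM, while Loxl2 rose from 39.5 ± 4.07 to 89.1 ± 3.4 FPKM. Cd44, the hyaluronan receptor, was at 15.8, 11.9 and 15.3 FPKM in the control libraries and 74.3, 65.5 and 72.6 FPKM with SHHN, and Vcan, a large proteoglycan that binds hyaluronan, rose from 48 ± 9.98 to 145 ± 8.62 FPKM. Of 12 tested hyaluronan and large proteoglycan genes 3 rose and 3 fell, with a median of 0.01. Nid2, a basement membrane linker, was at 269, 352 and 369 FPKM in the control libraries and 122, 113 and 98.9 FPKM with SHHN. It fell although Col4a1 and Col4a2 rose. Timp3, an inhibitor of metalloproteinases bound to matrix, rose from 64.2 ± 19.7 to 244 ± 3.71 FPKM, and the protease Mmp11 fell from 79.7 ± 21.2 to 26.3 ± 1.63 FPKM. Serine proteases and serpins fell in 7 of 13 cases. Plau, urokinase, fell from 63.4 ± 18.2 to 21.9 ± 2.43 FPKM, while Plaur, its receptor, rose from 8.24 ± 1.41 to 13.8 ± 0.733 FPKM.

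Adhesion and contraction genes fell in 20 of 53 cases and rose in 9, beside 12.8% and 15.2% of all tested genes. The share that rose was thus near that of all genes. Cdh11, the cadherin of mesenchyme, rose from 84.2 ± 14.1 to 154 ± 3.95 FPKM while Cdh2 fell from 34.3 ± 4.52 to 23.5 ± 0.764 FPKM. Itga8, an integrin chain of lung mesenchyme, fell from 15 ± 2.41 to 6.44 ± 0.677 FPKM, and Itga6, a laminin-binding chain, rose from 2.94 ± 0.661 to 6.61 ± 0.337 FPKM. Lamb1, a laminin chain, fell from 82 ± 3.36 to 39.4 ± 2.58 FPKM whereas Lamb2 rose from 116 ± 5.16 to 198 ± 11.7 FPKM. Acta2, the smooth muscle actin of myofibroblasts, was at 315 ± 30.1 FPKM in control and 292 ± 12.3 FPKM with SHHN and did not pass the test. Among receptors for soluble signals, S1pr1, a receptor for sphingosine phosphate, fell from 44 ± 2.41 to 10.9 ± 0.241 FPKM and Lpar1, a receptor for lysophosphatidic acid, from 55.6 ± 4.23 to 25.6 ± 0.0442 FPKM. Adcy7, an adenylyl cyclase, rose from 0.378 ± 0.121 to 5.03 ± 0.487 FPKM. Of the imprinted genes, H19 was at 65.7, 70.5 and 83 FPKM in the control libraries and 265, 218 and 263 FPKM with SHHN, a rise of 1.76.

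Of 116 tested transcription factors of patterning, immediate early response and the circadian clock 27 rose and 45 fell. Among all tested genes 15.2% rose and 12.8% fell. Of 24 tested Hox genes, which mark position along the body axis, 0 rose and 14 fell, with 9 lower without SHHN library 1. Hoxb9 was at 49.8, 48.3 and 42.2 FPKM in the control libraries and 22.8, 26.4 and 26.3 FPKM with SHHN, and Hoxa5, needed for lung formation, fell from 10.7 ± 1.28 to 5.9 ± 0.754 FPKM. In the group of T-box, Meis and Osr factors 3 rose and 10 fell of 17. Meis1, a Hox cofactor, was at 37.8, 40.7 and 43.9 FPKM in the control libraries and 13.6, 14.1 and 14 FPKM with SHHN, and Meis2 fell from 13.1 ± 1.66 to 6.35 ± 0.316 FPKM. Tbx18, found in mesothelium and pericytes, went the other way and rose from 11.4 ± 0.60 to 42.3 ± 2.67 FPKM. Ebf1, a factor of fat cell and stromal lineages, was at 3.33, 4.72 and 5.37 FPKM in the control libraries and 27.8, 27.5 and 29.8 FPKM with SHHN. Nr2f2, an orphan nuclear receptor, rose from 48.2 ± 1.76 to 142 ± 8.93 FPKM, and Twist2, a bHLH factor of mesenchyme, from 45.1 ± 6.84 to 162 ± 25.3 FPKM. Scx, the factor of tendon, fell from 7.16 ± 2.45 to 1.52 ± 0.508 FPKM. Snai1 rose from 11.2 ± 2.48 to 37 ± 5.01 FPKM and Snai2, its relative, fell from 38.3 ± 5.0 to 20.1 ± 1.31 FPKM. Bhlhe41, a repressor in the circadian clock, rose from 3.8 ± 0.71 to 16.2 ± 1.46 FPKM. Ier5, an immediate early gene, rose from 31.6 ± 6.2 to 98.6 ± 14.5 FPKM and Fosl1, an AP-1 subunit, fell from 2.65 ± 1.43 to 0.38 ± 0.0707 FPKM.

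Whether the effect of SHHN differed between MLg and NIH-3T3 was tested in a fit of all 12 libraries, as the MLg change minus the NIH-3T3 change. Of 12379 genes tested, 736 had a higher effect in MLg (5.95%) and 926 a lower one (7.48%), with a median of 0.02. Without NIH-3T3 control library 2 the genes with a higher effect numbered 1214, and without MLg SHHN library 3, 451. Those with a lower effect numbered 614 without MLg control library 2, 605 without MLg SHHN library 3 and 612 without NIH-3T3 SHHN library 2. Among mitosis genes, 22 of 72 had a lower effect and 2 a higher one, with a median difference of −0.55. Replication genes had 5 higher and 4 lower of 72, with a median of 0.15. FGF genes had 2 higher and 8 lower of 20, Wnt genes 3 and 9 of 33, and genes of protein and RNA handling 0 and 12 of 112. Inflammation genes leaned to a higher difference (11 higher, 4 lower of 51) and interferon genes to a lower one (2 higher, 11 lower of 54). Matrix genes had many of each (33 and 22 of 134). The difference keeps its sign, so a higher effect can also be a smaller fall in MLg than in NIH-3T3. C3, for example, changed by −1.62 in MLg and by −4.605 in NIH-3T3. In MLg most called members of the inflammation and interferon lists fell.

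Of the 57 Hedgehog genes in that fit 9 had a higher effect in MLg and 16 a lower one, beside 5.95% and 7.48% of all genes in it. Gli1 went from 0.131 ± 0.0478 to 147 ± 6.69 FPKM in NIH-3T3, a change of 7.87, and the difference was −1.04 (SE 0.22, adjusted p = 0.00672). Ptch1, by contrast, had a difference of 0.58 that did not pass the test (adjusted p = 0.119), and the adjusted p was 0.0405 when the replicate block was combined with the length and GC correction. Gli2 had a lower effect in MLg, by −1.38. Foxd1 (2.47) and Nkx3-2 (2.39) had higher effects in MLg. Both were near 0 in NIH-3T3, with control means of 0.0246 and 0.0349 FPKM and SHHN means of 0.038 and 0.158 FPKM. Foxd2 had a lower effect (−3.34), since it went from 5.58 ± 1.24 to 59.8 ± 3.37 FPKM in NIH-3T3 and changed by −0.01 in MLg.

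Among the highest and lowest differences were genes whose fitted changes had opposite signs in the lines. Snai1, a repressor of epithelial genes, rose by 1.7 in MLg and changed by −1.26 in NIH-3T3, from 32.8 ± 2.67 to 13.5 ± 2.69 FPKM. The difference was 2.96 (SE 0.24, adjusted p = 6.39e-06). Tnc, tenascin C of the matrix, rose in MLg from 16.3 ± 1.52 to 36.7 ± 3.47 FPKM and went from 11.1 ± 1.7 to 3.29 ± 2.29 FPKM in NIH-3T3. Ppap2b, a lipid phosphate phosphatase, had a difference of 3.06, with 523 ± 11.5 to 131 ± 31.2 FPKM in NIH-3T3. Rdh10 fell by 2.38 in MLg and changed by 0.73 in NIH-3T3, a difference of −3.11 (adjusted p = 1.53e-06). Fjx1, a secreted relative of a planar polarity kinase, had a difference of −3.31. Other genes had changes of one sign and unequal size, or a change in one line near 0. Hes1 changed by 6.1 in NIH-3T3 against 2.98 in MLg. Has2 was the highest difference, at 4.97 (SE 0.26, adjusted p = 1.34e-07), as it went from 15.7 ± 4.46 to 14.8 ± 1.67 FPKM in NIH-3T3. For Ngfr the difference was 3.91, with a level in NIH-3T3 from 0.0118 ± 0.0204 to 0.402 ± 0.195 FPKM. C3, which fell in MLg, went from 45.5 ± 8.03 to 1.47 ± 0.718 FPKM in NIH-3T3, so that its difference was 2.99. Sertad4, a gene of unsettled function, had a difference of −3.33, from 6.26 ± 0.523 to 106 ± 10.4 FPKM in NIH-3T3. For Ptgds, prostaglandin D synthase, the call of the difference of −2.51 ended with a pseudocount of 0.1 (adjusted p = 0.149). Its control level in NIH-3T3 was 0.236 ± 0.409 FPKM.

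**Figure D5:**
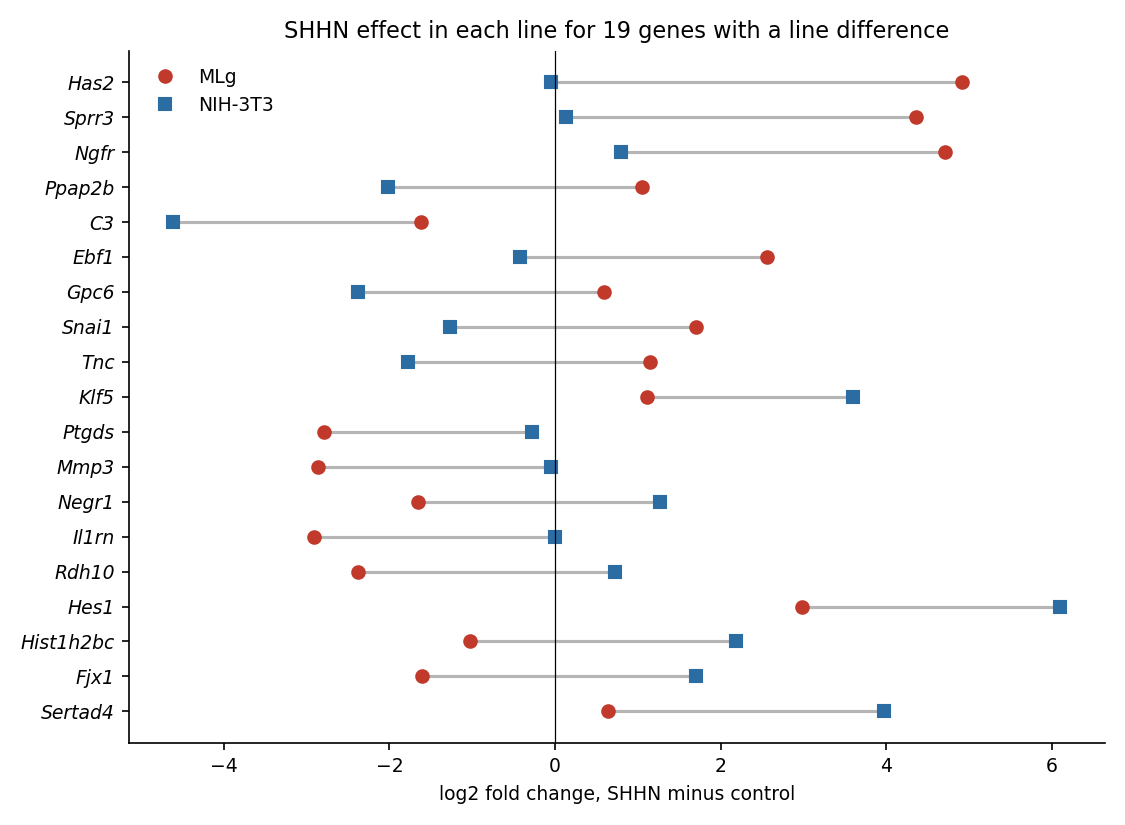
Points are the log2 fold change (SHHN minus control) in MLg (red circles) and in NIH-3T3 (blue squares) for 19 genes with the highest and lowest differences between the lines, joined by a line as long as the difference. Has2 and Ngfr stand far to the right in MLg and near 0 or 1 in NIH-3T3, and Snai1, Tnc and Ppap2b lie on opposite sides of 0 in the 2 lines.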

How the data were processed

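RNA of 12 samples was sequenced, and 6 libraries of MLg (3 control, 3 SHHN) were compared. Per the submitters' processing notes, the authors used bcl2fastq, TopHat2 2.0.12 and Cufflinks 2.2.1 with the mm10 build, and the deposited table gives FPKM per gene. Whether the counting used strand is not given in the sources used here. The table holds 24346 genes with values and 1 entry without. Gene positions came from GENCODE M21 (98.28% of symbols matched) and promoter windows from RefSeq (99.52% of symbols matched). FPKM carries no depth, so no count test was run.

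Values were tested in R 4.3.3 with limma 3.58.1 on log2(FPKM + 0.5), with a variance trend, for genes at 0.5 FPKM or more in 3 or more of the libraries fitted. Tests were two-sided, with Benjamini-Hochberg adjustment over all genes tested and a threshold of 0.05. The steps were tested on simulated data. Replicate numbers were checked as pairs: deviations of same-numbered control and SHHN libraries from their group means correlated at 0.141, 0.168 and 0.260, and those of unequal numbers at −0.192 to 0.0109. No libraries were identical.

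Genes were named by rule: the 20 highest and 20 lowest fold changes among called genes at 5 FPKM or more without overlap, up to 5 more on each side at 50 FPKM or more, all Hedgehog genes, up to 6 members of each list role by smallest p and members against the majority, and the 10 highest and 10 lowest differences between the lines. Predicted genes, microRNAs and small RNAs were left out, and a few named genes are not reported here. The comparison, lists and tests were chosen with earlier results of these data known. Alternatives were another pseudocount, filter, scaling, variance estimate, length and GC correction, replicate block, the 12 libraries in the fit and each library left out. Marker genes came from a separate list of cell type markers.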

Additional observations from a re-analysis of the deposited data

Results flagged for a closer look

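Each gene below had an SHHN effect in MLg that differed from the effect in NIH-3T3 by the limma interaction test over 12 libraries at an adjusted p under 0.05, and the value is the MLg change minus the NIH-3T3 change on the log2 scale. They are Hedgehog genes and genes named for the highest and lowest differences between the lines. They are thus a selection from the 736 and 926 genes called in that test. Other genes of the 20 highest and lowest fold changes are not listed here, whether or not their effects differed. Among Hedgehog genes the difference was −1.04 for Gli1, −1.38 for Gli2, −1.45 for Smo and 1.49 for Ptchd1. Hhat, the acyltransferase that finishes the ligand, differed by −2.55. It changed by −0.04 in MLg, without passing the test there, and went from 3.42 ± 0.397 to 21.8 ± 0.957 FPKM in NIH-3T3. Smo likewise did not pass the test in MLg and went from 122 ± 32.2 to 292 ± 35.4 FPKM in NIH-3T3. Of target genes, the difference was −1.33 for Ccnd1, 2.47 for Foxd1, −3.34 for Foxd2, 2.39 for Nkx3-2 and 1.13 for Sox9. It was 1.21 for Osr1, 1.43 for Osr2, −1.06 for Tbx3 and 1.12 for Igfbp3. In NIH-3T3 the means of Igfbp3 were 0 in both groups. Those of Foxd1 and Nkx3-2 there were at most 0.158 FPKM. Fst, follistatin, changed by −0.00 in MLg and went from 12.3 ± 3.44 to 1.24 ± 0.197 FPKM in NIH-3T3, a difference of 2.84. Bmp4 differed by −1.2, a call that ended with a pseudocount of 0.1 (adjusted p = 0.138). NIH-3T3 cells given vehicle averaged only 0.086 FPKM of Bmp4, so there was little room for a fall in that line.

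In 7 further Hedgehog genes the call ended under several alternatives. Kif7 (−0.62) lost it with any library left out (adjusted p up to 0.111) except MLg control 3, NIH-3T3 control 2 and NIH-3T3 SHHN 1. It also lost it with the replicate block (0.0559), quantile normalization (0.0567), no filter (0.0513), and length and GC correction (−0.31, 0.144, or 0.185 with the block). Tgfb2 (−0.89) lost it with any left out (up to 0.12) except NIH-3T3 controls 2 and 3 and NIH-3T3 SHHN 1. Rasl11b (−0.99) lost it with any left out (up to 0.0815) except MLg control 3, NIH-3T3 controls 2 and 3 and NIH-3T3 SHHN 1. Igfbp6 (0.90) lost it with any left out (up to 0.0709) except MLg control 2, NIH-3T3 controls 1 to 3 and NIH-3T3 SHHN 3. Foxc1 (−1.24) lost it without MLg control 2 (0.0792), NIH-3T3 control 3 (0.0727), NIH-3T3 SHHN 1 (0.0672) or NIH-3T3 SHHN 2 (0.0557). Foxc2 (−1.06) lost it without MLg control 1 (0.0562), MLg control 2 (0.0647), MLg SHHN 1 (0.0529), NIH-3T3 control 3 (0.062) or NIH-3T3 SHHN 2 (0.0686), and after length and GC correction (0.0752, or 0.0982 with the block). Vegfa (−0.84) lost it without MLg control 2 (0.0521), NIH-3T3 control 3 (0.051) or NIH-3T3 SHHN 2 (0.0561). With no filter the calls of Tgfb2 (0.0811), Rasl11b (0.0643), Igfbp6 (0.0567) and Foxc1 (0.0604) ended, and that of Tgfb2 also with a pseudocount of 0.1 (0.0527).

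Outside the pathway the difference was 4.97 for Has2, 4.22 for Sprr3, a protein of cornified epithelium, and 3.91 for Ngfr. It was 3.06 for Ppap2b, 2.99 for C3, 2.98 for Ebf1 and 2.97 for the glypican Gpc6. It was 2.96 for Snai1 and 2.92 for Tnc. Lower effects in MLg were −3.33 for Sertad4, −3.31 for Fjx1, −3.22 for the histone gene Hist1h2bc and −3.12 for Hes1. They were −3.11 for Rdh10, −2.92 for Il1rn, −2.92 for the adhesion gene Negr1 and −2.82 for Mmp3. For Ptgds the value was −2.51, and for Klf5, a zinc-finger factor, −2.49. In NIH-3T3 the control means of Il1rn, Mmp3 and Ptgds were 0.0122, 0.0161 and 0.236 FPKM, which left little room for a fall there. Rps27 taken alone differed by 13.95. The sum of Rps27 and its near copy Rps27rt differed by −0.22 (adjusted p = 0.673).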

How the results depend on the processing

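Alternatives changed one choice at a time, except that the block was also combined with the length and GC correction: a pseudocount of 0.1 or 1, a filter of 1 FPKM or none, median-ratio or quantile scaling, robust variances, a correction for gene length and GC content, 12 libraries in the fit, the replicate block, and each library left out. Of 529 named genes called in MLg, 429 were called the same way under every alternative run. Of 71 not called, 37 were called under at least 1. For 21 of the named genes, Ngfr, Wfdc1, Sox18 and Cdh5 among them, too few libraries passed the filter once an SHHN library was left out, so those alternatives gave no value. List counts of 4 or fewer moved by 1 to 3 genes under several alternatives. With a library left out, the genes that rose numbered 1210 to 2300 and those that fell 932 to 1691, the lowest counts without SHHN library 3. Those at least 2-fold higher numbered 568 to 691 and those at least 2-fold lower 287 to 350. The change of Gli1 was 6.72 to 7.03 and that of Ptch1 5.96 to 6.25. Genes with a higher effect in MLg than in NIH-3T3 numbered 451 to 1214, and those with a lower effect 605 to 1097. Length and GC correction gave 1206 genes with a higher effect. Rps27 summed with Rps27rt changed by −0.30, against 4.55 for Rps27 alone; this sum, like that of the proliferin copies (−2.65), was chosen after the data were seen. For the reversal the shared sequence of the copies is the alternative's own construction, and for the other counts the cause was not tested.

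Under the replicate block 2086 genes rose and 1847 fell, and with the block and the length and GC correction 1118 genes had a higher effect in MLg than in NIH-3T3. The block moved a few small list counts by over 1.5 times, and those of lists described are given with them. The depth is unknown, so the precision of low values could not be judged from counting.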
